A study of Mus musculus with 2 samples.

Results

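The liver macrophage genes Marco, Clec7a, Gpnmb and Cd5l, were described in mouse liver after parenteral nutrition (PN, feeding through a vein) and after saline infusion. They are 4 of the 1750 named genes of the series, and each was taken from the row of the deposited table that the platform annotation gives to that symbol alone. These genes were picked by their measured PN minus saline differences among macrophage genes, so those differences are descriptions without a test. Both groups were wild-type C57BL/6J mice, 6 to 10 weeks old, catheterized through the jugular vein on day 1 and infused with saline from day 2. From day 3 the saline group stayed on saline and kept its food, whereas the PN group received PN and had its food taken away. Livers were collected on day 11, after 8 days of either infusion. The sex of the mice and what the PN solution held were not given in the labels.

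RNA of 3 mice per group was pooled and each pool was measured on 1 array, so values carry no replicate error and the groups could not be tested against each other. The spread between mice is lost in a pool. Effects of the infused nutrients and of the missing food cannot be told apart. In whole liver, more macrophages and more RNA per macrophage also cannot be told apart. Levels are RMA values (robust multi-array average, a background-corrected and normalized summary over the probes for a gene) on the log2 scale, and differences are PN minus saline on that scale. The authors' table is limited to rows past a 1.5-fold cutoff, so the absence of a gene does not show that it was unchanged. Of 16 hepatocyte markers, 14 had no named value, among them the albumin gene Alb, so the tissue label could not be checked against them.

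Kupffer cells are the resident macrophages of the liver sinusoids and take up bacteria, cell debris and modified lipoproteins from portal blood. Marco encodes a trimeric class A scavenger receptor that binds bacteria and particles. Clec7a encodes Dectin-1, a C-type lectin receptor for fungal beta-glucans that signals through the kinase Syk and the adaptor Card9. Gpnmb encodes a transmembrane glycoprotein of endosomes and lysosomes, is transcribed under MITF and related factors, and is known as a marker of lipid-laden macrophages. Cd5l encodes a protein of the scavenger receptor cysteine-rich family, also called AIM, which macrophages secrete and which is a known target of the nuclear receptor LXR.

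The promoter windows of the 4 genes are shown because macrophage genes are widely controlled by the transcription factor PU.1. Each window runs from 250 bases before to 50 bases after the annotated start, 5′ to 3′ on the gene's strand, and comes from RefSeq on build GRCm38.p6. All 4 members were matched by symbol. Capitals mark the PU.1 core letters GAGGAA (read on the opposite strand in the case of Cd5l) and the AP-1 letters TGANTCA. The Marco window is chr1:120504975-120505274 on the minus strand, that of Clec7a chr6:129472736-129473035 on the minus strand, that of Gpnmb chr6:49036268-49036567 on the plus strand and that of Cd5l chr3:87357631-87357930 on the plus strand.
Marco: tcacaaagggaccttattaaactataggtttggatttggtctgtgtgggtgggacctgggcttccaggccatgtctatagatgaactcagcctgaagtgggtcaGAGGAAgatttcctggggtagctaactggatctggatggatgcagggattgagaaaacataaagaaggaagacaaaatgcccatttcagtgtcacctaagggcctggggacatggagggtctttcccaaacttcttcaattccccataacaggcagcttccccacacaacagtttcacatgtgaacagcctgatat
Clec7a: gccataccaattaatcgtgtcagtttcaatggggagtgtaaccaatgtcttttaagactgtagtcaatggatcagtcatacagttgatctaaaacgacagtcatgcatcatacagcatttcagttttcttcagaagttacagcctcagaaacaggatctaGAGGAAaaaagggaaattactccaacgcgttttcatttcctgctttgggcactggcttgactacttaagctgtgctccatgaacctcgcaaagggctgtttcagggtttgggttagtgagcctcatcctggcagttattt
Gpnmb: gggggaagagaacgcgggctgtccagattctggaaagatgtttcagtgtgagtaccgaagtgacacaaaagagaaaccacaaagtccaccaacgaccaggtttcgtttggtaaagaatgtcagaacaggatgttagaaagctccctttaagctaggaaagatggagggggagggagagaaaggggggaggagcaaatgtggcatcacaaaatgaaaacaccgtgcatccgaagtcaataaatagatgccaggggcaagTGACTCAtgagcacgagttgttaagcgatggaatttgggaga
Cd5l: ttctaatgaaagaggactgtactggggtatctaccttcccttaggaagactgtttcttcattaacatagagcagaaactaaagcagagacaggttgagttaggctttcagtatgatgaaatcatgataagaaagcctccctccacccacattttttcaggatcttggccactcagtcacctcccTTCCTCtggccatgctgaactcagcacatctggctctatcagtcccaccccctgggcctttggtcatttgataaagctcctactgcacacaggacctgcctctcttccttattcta

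The GAGGAA core was found in the windows of Marco, Clec7a and Cd5l, and in 28.3% of the 32851 promoter windows of the RefSeq table. Its first base lay at -146 in Marco, at -90 in Clec7a and, on the opposite strand, at -66 in Cd5l, counted from the annotated start. A second annotated start of Clec7a lies 6 bases away, and its window holds the same copy. The Gpnmb window held no GAGGAA but held TGACTCA, a form of the AP-1 motif, from base 9 after the start. TGANTCA occurred in 7.81% of all windows and in none of the other 3 members. The search covered 6 further motifs on both strands, and none was found in the 4 windows: GAGGAAGT, a longer PU.1 form that contains the core (3.20% of all windows), the E-box CACGTG that MITF-family factors bind (7.15%), the NF-kB form GGGANTTCC (1.68%), the STAT form TTCNNNGAA (8.30%), the nuclear receptor core AGGTCA (16.3%) and the interferon response form GAAANNGAA (8.56%). Only the letters given were searched, not other forms that the same factors may bind. The matches are of letters in a short window and say nothing of binding.

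All 4 members were higher in the PN pool, where 50.2% of all named genes were higher and 49.8% lower. All 4 differed by at least 2-fold, against 7.6% of named genes that were higher by that much. Both counts follow from how the members were picked. The median of the 4 differences was 1.32 (2.50-fold), beside a median absolute difference of 0.73 over all named genes.

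Marco had a level of 4.81 with saline and 7.17 with PN. Its difference of 2.36, or 5.15-fold, ranked 10 from the top among the 1750 named genes. Clec7a had a level of 4.69 with saline and 6.25 with PN. Its difference of 1.56 (2.94-fold) ranked 22. These 2 surface receptors had the widest gaps of the 4 members.

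Gpnmb had 4.40 with saline and 5.49 with PN, a difference of 1.09 (2.13-fold) that ranked 91. Cd5l had 6.65 with saline and 7.71 with PN, a difference of 1.07 (2.09-fold) that ranked 106. The differences of Gpnmb and Cd5l were 0.02 apart, and those of Marco and Cd5l 1.30 apart, a ratio of folds of 2.46. With 1 array per pool, none of these distances between members has an error.

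For reference, the table also holds 133 genes of chemosensory receptors (olfactory, vomeronasal, taste and trace amine receptors), most of which have no known use in liver. The median of the higher of their 2 levels was 3.26, and all 4 members lay above it in both pools. Gpnmb came nearest, at 1.14 above it in the saline pool. The highest level of a receptor gene was 7.42, above both levels of Marco, Clec7a and Gpnmb. The median of 3.26 is thus no upper limit of background. In absolute size, the differences of these receptor genes had a 95th percentile of 1.11 and a maximum of 1.41. Of the 133 receptor genes, 8 differed by at least as much as Cd5l. These receptor genes too are only those past the 1.5-fold cutoff, and the members were picked by their differences, so the receptor values are no measure of noise and the comparison supports nothing about the members.

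**Figure D1:**
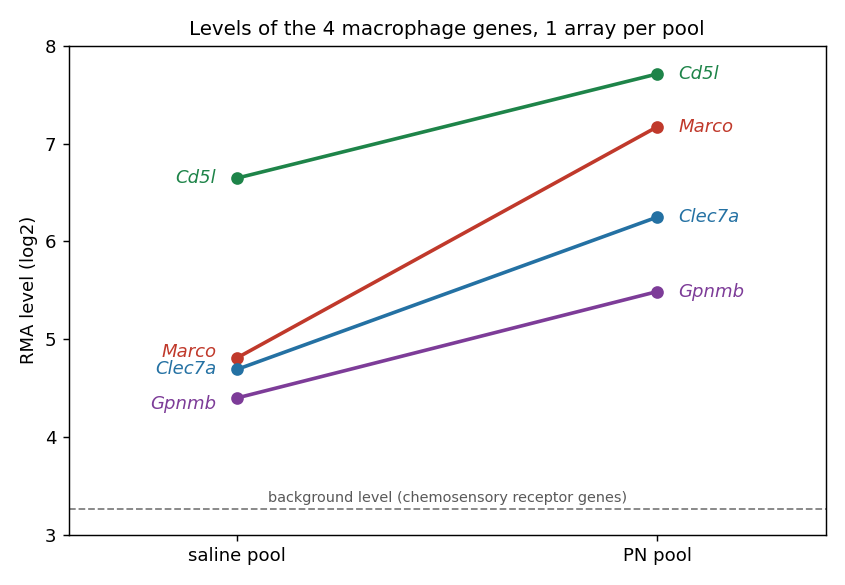
RMA level (log2, vertical axis) of Marco, Clec7a, Gpnmb and Cd5l in the saline pool and the PN pool, 1 array of 3 pooled mice each, with a line joining the 2 values of a gene and no error bars because there are no replicates. The steepest line is that of Marco, from 4.81 to 7.17, and the dashed line marks 3.26, the median higher level of chemosensory receptor genes.

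The members were next set beside other genes of macrophages. A list of 32 genes of resident Kupffer cells, Marco and Cd5l included, had 18 with a named value, and 17 of these were higher in the PN pool. Without the 2 members, 16 of 30 had a value and 15 of the 16 were higher, with a median difference of 0.78 (1.71-fold). Thus 53.3% of these 30 genes were in the table, against 6.54% of the 21887 protein-coding genes of the RefSeq table with a named value. How many of either were measured on the array but unnamed or below the cutoff is not known here. The 21887 genes were not limited to genes of the liver. This list, like those below, was chosen with earlier results of these data known, so these shares support nothing about the members. The share of genes higher in the PN pool is to be read against the 50.2% of named genes given above. Likewise, the median of 0.78 is to be read against the median absolute difference of 0.73 over all named genes.

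Among these other Kupffer cell genes, Spic, a transcription factor gene of iron-recycling macrophages, had the largest difference, 1.68 (3.21-fold). Its saline level of 3.35 lay close to the receptor level of 3.26, and its PN level was 5.04. Fcgr1, the high-affinity IgG receptor gene, went from 5.13 to 6.19, a difference of 1.06 that fell just short of that of Cd5l. Il18bp, which encodes an inhibitor of interleukin-18, was higher by 0.98 and Mpeg1, a gene of a pore-forming protein of phagocytes, by 0.84. Spic was the only one of the 20 further macrophage genes with a value that exceeded Cd5l.

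Other genes that mark Kupffer cells had the following values. Clec4f, a lectin gene restricted to Kupffer cells in mice, had 7.30 with saline and 7.91 with PN, a difference of 0.62. Vsig4, a complement receptor gene, was at 8.39 and 9.03, a difference of 0.63. The haemoglobin scavenger receptor gene Cd163 was higher by 0.81, the lectin gene Clec1b by 0.79 and the ficolin gene Fcna by 0.79. Timd4 and Adgre1, which encodes F4/80, had no named value.

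General macrophage genes were at similar differences. The cutoff removes rows that differ by less than 0.585, and the median absolute difference over all named genes was 0.73. The likeness in size is therefore no result about these genes. The lysosomal protein gene Cd68 was higher by 0.73, the adaptor gene Tyrobp by 0.76, the receptor kinase gene Axl by 0.81 and the complement gene C1qb by 0.72. C1qa and C1qc, whose products form a complex with that of C1qb, had no named value. Lyz2 was higher by 0.62, but the close copy Lyz1 makes that assignment uncertain, and Wfdc17 was higher by 0.59. Id3, a transcriptional regulator that Kupffer cells need and that other liver cells express too, was the 1 gene of the list that was lower, at 7.17 with saline and 6.56 with PN.

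**Figure D2:**
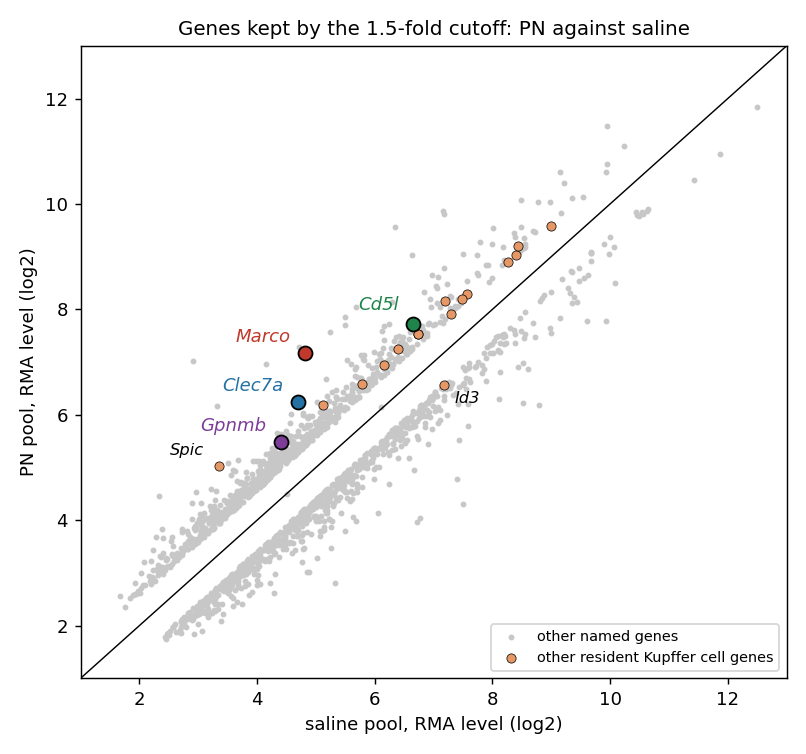
PN level against saline level (both RMA, log2) for the 1750 named genes, each point 1 gene, with the 4 members and the 16 other resident Kupffer cell genes marked; the empty band along the diagonal is the authors' 1.5-fold cutoff, and the few points inside it are genes averaged over rows of opposite direction. All marked genes lie above the diagonal except Id3, and Marco, Clec7a and Spic lie furthest from the band.

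Clec7a and Gpnmb belong to a second list, of 22 genes of recruited and lipid-associated macrophages. Of these, 6 had a named value and 5 were higher, beside 50.2% of all named genes. Without the 2 members, 3 of 4 were higher. Lpl, the lipoprotein lipase gene, was higher by 0.82, the tetraspanin gene Cd63 by 0.73, and the macrophage elastase gene Mmp12 by 0.83 at low levels of 3.78 and 4.60. The fatty acid binding protein gene Fabp5 was lower, at 8.16 with saline and 7.52 with PN, each the mean of 2 rows. Trem2, Spp1, Cd9, Itgax, Lgals3 and the monocyte genes Ccr2 and Ly6c2 had no named value.

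For the receptors, Marco was set beside 25 scavenger receptor genes and Clec7a beside 29 C-type lectin receptor genes. Of the scavenger receptors, Marco, Cd5l, Cd163 and Cd68 had a value and 21 had none, among them Msr1, the class A receptor most like Marco. Of the C-type lectin receptors 6 had a value. Clec12a, an inhibitory receptor gene, had 4.55 with saline and 5.84 with PN, a difference of 1.28 that came next to that of Clec7a. Cd209g was higher by 0.62. Clec2h was lower, from 7.39 to 4.78, a difference of -2.61, the largest in size of the 6.

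Clec7a, Clec12a and Clec1b lie close together on mouse chromosome 6, in a cluster of C-type lectin genes. Among the 10 protein-coding genes on either side of Clec7a in the RefSeq order, 5 had a named value. Clec1b, 3 genes away, and Clec12a, 5 genes away, were higher as given, and the natural killer cell receptor genes Klrc1 and Klrc2 were higher by 0.72 and 0.69, the latter below the receptor level of 3.26 in both pools. Gabarapl1, an autophagy gene 3 genes away on the other side, was lower, with a difference of -0.61 from a level of 9.68. The lectin genes Clec9a, Clec1a and Olr1 in that stretch had no named value.

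The other members had few neighbours in the table. None of the 20 neighbours of Marco had a named value, and 1 of the 20 of Cd5l did, the lipid antigen presentation gene Cd1d1, which had a difference of -0.96. Of the 20 around Gpnmb 5 had one. Aoc1, a diamine oxidase gene, had a difference of -1.79, Gimap1 of -0.84 and Osbpl3 of -0.63, while Gimap5 was higher by 0.73 and Gsdme by 0.72. Gimap1 was at 3.53 with saline and 2.68 with PN, the latter below the receptor level of 3.26. Aoc1 was at 5.26 with saline and 3.47 with PN, the latter close to that level. Of all 80 neighbours 13.8% had a named value, beside the 6.54% of protein-coding genes given above, and neighbouring genes of one family can share probe sequence.

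The pathway downstream of Clec7a was covered thinly. Of 36 genes of Dectin-1 signalling and its output, 7 had a named value. Clec7a was among the 5 that were higher, beside 50.2% of all named genes. Card9, the adaptor that links Syk to NF-kB, was lower, from 5.39 to 4.79. Plcg2, a phospholipase gene of the same pathway, was higher by 0.68 and the NF-kB subunit gene Rel by 0.77. Of the output genes, Egr1 was higher by 2.35 and the chemokine gene Ccl3 by 1.35, from 3.60 to 4.95. In whole liver these values cannot be assigned to a cell type, and a part of Dectin-1 in them was not tested. Il6 had a difference of -0.62 at levels of 2.94 and 2.31, both below the receptor level. Syk, Il1b, Tnf and Il10 had no named value.

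For Gpnmb, 36 genes of lysosomes and targets of MITF-family factors were examined. Besides Gpnmb, 3 had a value and were higher, beside 50.2% of all named genes. Ctss, a cathepsin gene of antigen-presenting cells, was higher by 0.64, Cd63 by 0.73 and Cd68 by 0.73. The median absolute difference over all named genes was 0.73. Cd63 and Cd68 were also counted on the macrophage lists above. The factor genes Mitf, Tfeb and Tfe3 and the cathepsin genes Ctsb, Ctsd and Ctsl were among the 32 without a named value. For Cd5l, 22 LXR target genes were examined, of which 6 had a value and all 6 were higher, beside 50.2% of all named genes. Besides Cd5l these were Pltp, a phospholipid transfer protein gene, at 0.98, Fasn at 0.96, Abcg8 at 0.69, Lpl at 0.82 and Cyp7a1 at 1.27. Hepatocytes express Fasn, Abcg8 and Cyp7a1, so in whole liver the values on this list are no readout of macrophages. The LXR genes Nr1h3 and Nr1h2 and the targets Abca1, Abcg1 and Srebf1 had no named value.

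Genes that sense microbial products gave 8 values of 32 listed, with 6 higher and 2 lower, where 50.2% of all named genes were higher. Tlr8, at 3.29 and 4.38, was higher by 1.09, Tlr13 by 0.73 and Tlr2 by 0.67, whereas Tlr3 had a difference of -0.69 and Tlr6 of -0.62. Saa3, a serum amyloid gene of macrophages and other cells, was higher by 1.25. The feedback inhibitor genes Socs3 and Tnfaip3 were higher by 1.20 and 0.69. Of 23 genes of apoptotic cell uptake, Axl, C1qb and Havcr1 had a value and were higher, Havcr1 by 0.67 at levels of 3.11 and 3.78.

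**Figure D3:**
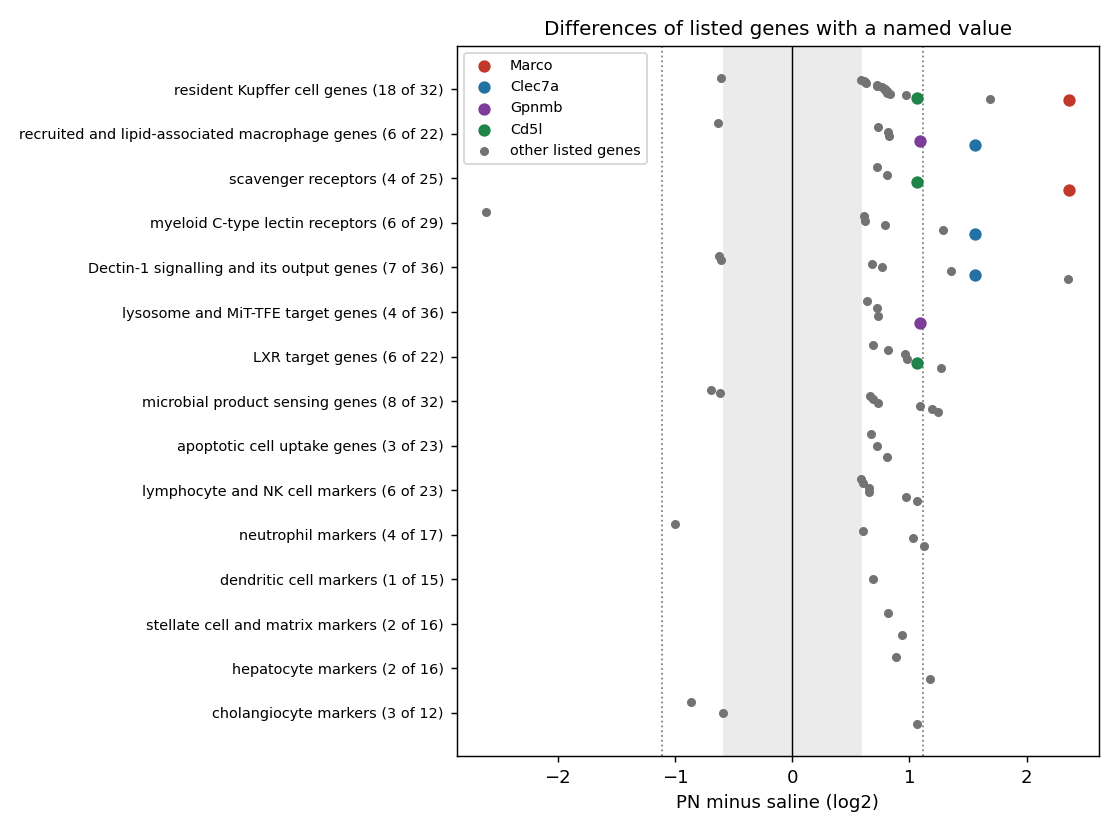
PN minus saline difference (log2, horizontal axis) of every listed gene with a named value, by list, with the number with a value of the number listed in brackets; each point is 1 gene, and a gene on several lists appears in each. The grey band is the range removed by the 1.5-fold cutoff, the dotted lines mark 1.11 on either side, the 95th percentile of chemosensory receptor genes, and Marco at 2.36 lies furthest to the right.

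Some markers of other cell types were higher as well. Of 23 lymphocyte and natural killer cell markers, 6 had a value and all 6 were higher, by 0.59 to 1.07, beside 50.2% of all named genes. Their mean level was 4.31 with saline and 5.07 with PN. Ighm, at 3.37 and 3.96, and Klrb1c, at 3.61 and 4.22, lay near the receptor level of 3.26. Among 17 neutrophil markers there were 4 values, with mean levels of 5.41 and 5.85. S100a9 was higher by 1.12, S100a8 by 1.03 and Csf3r by 0.61. Lcn2, also a hepatocyte gene, was 2.00-fold lower. Ly6g, Mpo and Elane were without a named value. Of 15 dendritic cell markers Flt3 alone had a value, 3.77 and 4.46. No endothelial marker of 15 had one. The stellate cell and matrix genes Lum and Tgfb1 were higher by 0.93 and 0.81, 2 of 16 listed. The hepatocyte markers G6pc and Ass1 were higher by 1.18 and 0.89. Of 12 cholangiocyte markers 3 had a value, with Epcam at -0.87 and Tspan8 at -0.59, while Prom1 was higher by 1.06. No listed gene is at 0, since RMA levels have no true zero. The part of these cell types in the values of the 4 members was not tested.

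The genes most like each member were found by the distance between their pairs of log2 levels, over the 2 pools. Nearest to Marco was Abcd2, a peroxisomal transporter gene, at 4.72 and 7.29 and a distance of 0.15, then Noct at 0.59 and Dcpp1 at 0.62. Nearest to Clec7a were Ifrd1 at 0.23, Klk1b5 at 0.27 and Cd84, a receptor gene of leukocytes, at 0.27. Nearest to Gpnmb were Ksr1 at 0.04, Hdc at 0.08 and Ficd at 0.09, and nearest to Cd5l were Ptp4a1 at 0.07, Tpm4 at 0.10 and Igtp at 0.15. The third gene in order was thus closer to Gpnmb and Cd5l than to Marco, which lies apart from the bulk of genes in the plot of PN against saline levels. With 2 values per gene this describes position only, and levels of different probe sets are not amounts of RNA.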

How the data were processed

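Liver RNA was pooled from 3 mice per group and hybridised, as biotin-labelled cDNA, to 2 arrays. Per the submitters' processing notes, the authors made the deposited log2 values with RMA in Affymetrix Expression Console 1.4.0.38. The series' design text says that rows were kept by a 1.5-fold cutoff, and the smallest absolute difference in the table was 0.585. No source used here gives the genome build or which arrays were normalized jointly.

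Of the 5082 rows, 1779 carried 1 gene symbol, 161 several and 3142 none. Rows with 1 symbol were averaged per gene (1750 genes), with symbols updated through the RefSeq table of GRCm38.p6 for the 1766 rows found there. Each member had 1 row. Differences are PN minus saline with no pseudocount, and a fold is 2 to the power of the difference. Groups come from the labels' mouse group. With 1 array per group no p-value was computed, and the number of arrays limits the precision.

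The members, the 16 gene lists, the motifs and the chemosensory receptor level were chosen with earlier results of these data known. Named are the members, listed genes with a value, the 3 nearest genes of each member (predicted genes left out) and, chosen after their values were seen, chromosome neighbours. Alternatives changed the centring, the normalization, the level and fold filters and the rows used. Python 3.11.15 with pandas 2.3.3 was used, and the counting was tested on simulated data.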

Additional observations from a re-analysis of the deposited data

Results flagged for a closer look

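A row shared by Scd2, a stearoyl-CoA desaturase gene on the LXR target list, and the microRNA gene Mir5114 was left out of the reported counts because it carries several symbols, and was counted for LXR targets only where such rows were added, which gave 7 genes higher in place of 6. Its level was 4.39 with saline and 5.47 with PN, which is 1.08 above the saline control.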

How the results depend on the processing

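The differences of the 4 members kept their direction under all 5 alternatives. Quantile normalization of the columns, raising low levels to 3.26 and the use of the brightest row moved none by 0.1 or more. Centring did, because the cutoff leaves no values near 0 and the median difference falls on either edge of the gap, at -0.60 over all rows and at 0.59 over named genes. Centred over all rows, Marco was at 2.97, Clec7a at 2.16, Gpnmb at 1.69 and Cd5l at 1.67, and over named genes they were at 1.78, 0.97, 0.50 and 0.48.

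With a 2-fold cutoff, the genes higher in the PN pool numbered 4 for resident Kupffer cells, 3 each for Dectin-1 signalling and microbial sensing, 2 each for recruited macrophages, scavenger receptors, C-type lectin receptors and LXR targets, 1 each for lysosomal genes, lymphocytes and hepatocytes, and 0 for apoptotic cell uptake, dendritic and stellate cells. Of all named genes, 7.6% were higher by at least 2-fold. The 4 members pass this cutoff because of how they were picked. Members alone make up the counts for recruited macrophages, scavenger receptors and lysosomal genes. Marco and Cd5l are among the 4 Kupffer cell genes, Clec7a among the C-type lectin and Dectin-1 genes, and Cd5l among the LXR targets. Among genes of at least the median higher level, 5.18, genes higher in the PN pool numbered 3 for Dectin-1 signalling, 2 for lymphocytes and 0 for dendritic cells and cholangiocytes. Without the 4 members, an alternative chosen after seeing the data, 3 recruited macrophage genes and 2 scavenger receptors were higher. Quantile normalization and rows with several symbols moved no list's count by over 1.5 times. No paired analysis was possible because each group has 1 array, and no replicate could be left out. Signal near or below 3.26 limits what the values of Il6, Havcr1, Prom1, Tlr8, Spic, Ighm, Klrc2, Gimap1 and Aoc1 can show.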
